A study of Mus musculus with 2 samples.

Results

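The Ptx3/Has2/Cxcl5 fibroblasts of the mouse uterus described here were 502 of 7076 quality-passing cells and 502 of 2257 fibroblasts, taken from 2 single-cell libraries. A cell had to carry at least 1000 unique molecular identifiers (UMIs, 1 per captured transcript), at least 500 genes and at most 20% mitochondrial UMIs. It counted as a fibroblast with at least 3 UMIs of Pdgfra, Dcn and Lum together and none of Ptprc (leukocytes) or Epcam (epithelium). It was selected when Ptx3, Has2 and Cxcl5 summed to at least 3 UMIs and to more than each of 3 other gene sets: Frzb, Ngfr and Nog; Pi16, Pcolce2 and C1qtnf3; Scube1 and A2m. Ties were left out. The cells were thus chosen by the measured UMIs of all these genes, whose levels are given as a description only. The selection gave 146 of 893 fibroblasts in the library labelled control and 356 of 1364 in the library labelled cKO.

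Whole uteri of female C57BL/6J mice aged 6 months were dissociated with collagenase for 5 hours and captured in droplets that count transcripts near their 3′ end. One library came from Prickle1 f/f mice (control) and 1 from Prickle1 f/f MiC mice (cKO), each a pool of 3 mice, so both groups carry the floxed Prickle1 allele. The labels do not expand MiC, do not say which cells it targets or which part of the gene is floxed, and read wild-type in the genotype field of both libraries. With 1 pooled library per group no test between groups was possible, and group, pool and preparation cannot be told apart. Intervals are 95% and cover counting error only.

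Ptx3 encodes pentraxin 3, a secreted pattern recognition protein, and Has2 a synthase of hyaluronan, a long extracellular sugar polymer. Tnfaip6 encodes TSG-6, a secreted protein that moves heavy chains onto hyaluronan, and pentraxin 3 helps to crosslink that matrix, as is known from the cumulus matrix around the egg. Cxcl5 and the related Cxcl1, Cxcl2 and Cxcl3 encode chemokines that attract neutrophils, and many such genes are known targets of the transcription factor NF-kB after interleukin 1 or tumour necrosis factor.

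The control library held 45035801 UMIs and the cKO library 34261441. The libraries shared 6 cell barcodes among quality-passing cells and none among the selected cells. Prickle1, a planar cell polarity gene, was higher, not lower, under the cKO label: over all quality-passing cells it had 96 UMIs in the control library (2.56 CPM, counts per 1000000 UMIs, interval 2.07 to 3.12) and 265 in the cKO library (9.03 CPM, 7.97 to 10.2). The mix of cells differed between the libraries, with 806 epithelial cells gated in the control library and 62 in the cKO library. Within the Ptx3/Has2/Cxcl5 cells Prickle1 had 8 UMIs (3.21 CPM, 1.39 to 6.33) and 39 UMIs (7.81 CPM, 5.55 to 10.7), with intervals that overlapped. Counts near the 3′ end can lie outside a floxed part and do not check a deletion there, so both libraries are named by their labels throughout.

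The stretches of DNA just before the start sites of 6 genes are shown because Cxcl1, Cxcl2, Cxcl3 and Il6 were among the 15 genes that stood highest in the selected cells, Ier3 was another of the 15, and Ptx3 named the cells. Each is 150 bases long, ends at the base before the start site of a RefSeq transcript (build GRCm38.p6), lies on the plus strand and reads 5′ to 3′. Capitals mark a match to the NF-kB consensus.
Cxcl1, chr5:90891095-90891244: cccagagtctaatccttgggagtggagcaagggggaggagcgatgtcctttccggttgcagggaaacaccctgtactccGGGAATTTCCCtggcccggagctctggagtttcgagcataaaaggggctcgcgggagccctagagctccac
Cxcl2, chr5:90903749-90903898: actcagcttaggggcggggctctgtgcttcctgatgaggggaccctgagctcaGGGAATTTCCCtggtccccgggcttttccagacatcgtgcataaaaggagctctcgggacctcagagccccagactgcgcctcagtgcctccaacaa
Cxcl3, chr5:90785951-90786100: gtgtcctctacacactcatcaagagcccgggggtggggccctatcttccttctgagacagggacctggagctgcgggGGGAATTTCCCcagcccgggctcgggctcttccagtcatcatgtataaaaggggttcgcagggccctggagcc
Il6, chr5:30012964-30013113: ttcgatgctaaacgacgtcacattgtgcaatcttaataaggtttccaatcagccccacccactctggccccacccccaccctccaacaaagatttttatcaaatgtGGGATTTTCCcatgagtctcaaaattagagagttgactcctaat
Ier3, chr17:35821563-35821712: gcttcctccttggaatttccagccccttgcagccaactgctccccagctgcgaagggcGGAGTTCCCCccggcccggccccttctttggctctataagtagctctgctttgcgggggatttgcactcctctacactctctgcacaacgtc
Ptx3, chr3:66219737-66219886: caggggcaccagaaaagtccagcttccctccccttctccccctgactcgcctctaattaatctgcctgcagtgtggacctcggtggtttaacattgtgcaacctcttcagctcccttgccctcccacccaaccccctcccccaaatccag

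In the 3 neighbouring chemokine genes the same 11 letters were found, read as 2 overlapping matches on the 2 strands, and the first match began 71 bases before the start in Cxcl1, 97 in Cxcl2 and 73 in Cxcl3. In Il6 it began 44 bases before the start. Of 20 genes looked up (Ptx3, Has2, Cxcl5, Tnfaip6, Timp1 and the 15 highest genes below), 11 had a RefSeq window, and 5 of the 11 held the NF-kB consensus within 250 bases before the start on either strand: Cxcl1, Cxcl2, Cxcl3, Ier3 and Il6. Over all 27025 mouse genes with windows of the same length, 8.23% had a match at any start, and 7.25% of all 32851 single windows had one. The genes looked up were chosen as high in these data or as markers, and the 5 include the 3 neighbouring chemokine genes. TGANTCA, the AP-1 motif, was in Il6 and Tnfaip6 (7.82% of all genes), and TTGCNNAA, a C/EBP motif, in Il1rl1, Il6 and Ptx3 (10.8%). A match is a description of the letters and not a bound site.

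Ptx3, Has2 and Cxcl5 were carried by overlapping but different cells. Ptx3 stood at 1167 CPM in the control library and 1140 in the cKO library, against 40.8 and 42.2 CPM in the other fibroblasts. It had a UMI in 76.0% and 64.3% of the selected cells. Has2 stood at 433 and 832 CPM, against 74.4 and 109 CPM, and had a UMI in 71.2% (interval 63.2 to 78.4) and 86.2% (82.2 to 89.6) of the cells.

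Cxcl5 was the most unevenly spread of the 3. It stood at 1564 and 890 CPM, against 6.34 and 9.61 CPM in the other fibroblasts, but a UMI was found in only 32.9% and 21.6% of the selected cells. The 10 cells with most Cxcl5 held 61.2% and 62.3% of its UMIs, compared with 47.6% and 33.9% for Ptx3 and 29.5% and 15.5% for Has2. All 3 transcripts were found together in 29 cells of the control library and 45 of the cKO library, Ptx3 with Has2 alone in 43 and 140, and Cxcl5 alone in 3 and 5. Cxcl5 was thus carried by a minority of the cells that the rule took.

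Some fibroblasts lay close to the threshold on both sides. The summed UMIs of the 3 genes ranged from 3 to 539 with a median of 19 in the control library, and from 3 to 625 with a median of 18 in the cKO library. Just inside it, at exactly 3 UMIs, lay 4 and 15 cells, and just outside, at 2 UMIs, 9 and 14 cells that passed the other conditions. Ccl2 had 29.9 and 3656 CPM in the cells just inside and 934 and 201 CPM in those just outside, so the order differed between the libraries at these small cell numbers. A further 92 and 176 fibroblasts had 3 or more UMIs of the genes but were left out, because the Frzb set was larger (46 and 87 cells), the Pi16 set was larger (37 and 54), the Scube1 set was larger (0 and 17) or the sums were tied (9 and 18). Those left-out cells had 83.6 and 193 CPM of Il6, less than the selected cells.

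The rule fixed the presence of the fibroblast markers Pdgfra, Dcn and Lum. The fibroblast markers outside it, Col1a1, Col1a2 and Col3a1, had UMIs but stood lower than in the other fibroblasts, Col1a2 at 1043 against 1954 CPM and 867 against 1739 CPM. Leukocyte and epithelial markers were low, in part by the rule, which needed Ptprc and the epithelial marker Epcam at 0. The 9 macrophage markers summed to 52.6 and 17.8 CPM, against 31.8 and 27.7 CPM in the other fibroblasts. In the control library 1 cell held 76 of their 131 UMIs. The 6 neutrophil markers summed to 2.01 and 2.00 CPM, against 4.37 and 4.21 CPM. The 7 T or NK cell markers summed to 2.41 and 2.80 CPM, against 1.83 and 4.58 CPM. The 5 mast cell markers summed to 4.02 and 16.4 CPM, against 8.31 and 7.97 CPM, with 57 of 82 cKO UMIs in 1 cell. The 6 epithelial markers summed to 20.1 and 2.00 CPM, against 107 and 25.9 CPM. The 6 mesothelial markers summed to 68.7 and 80.9 CPM, with Msln, Lrrn4 and Bnc1 at 0 in both libraries, against 175 and 124 CPM in the other fibroblasts, and the 5 granulosa markers to 7.63 and 13.01 CPM, with Fshr and Cyp19a1 at 0. The 5 blood endothelial markers summed to 67.1 and 60.4 CPM, against 36.6 and 65.4 CPM, with 3 or more UMIs in 8 and 35 selected cells. The 4 lymphatic markers summed to 188 and 8.01 CPM, against 7.89 and 18.5 CPM, with 461 of their 468 UMIs in the control library from 1 cell. The 6 smooth muscle markers summed to 507 and 429 CPM, below the 862 and 666 CPM of the other fibroblasts. Of the 5 markers given for these inflammatory fibroblasts, all had UMIs, and the 2 that the rule did not use differed: Timp1 was more than 2-fold higher in the selected cells in both libraries, and Tnfaip6 only in the cKO library.

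The selected cells were also deeper. Their median was 15726 UMIs in the control library and 11988.5 in the cKO library, against 6862 and 8616 UMIs in the other fibroblasts. The estimated share of free RNA in their counts, read from macrophage, epithelial and erythroid markers, was 1.25% and 1.51%, against 9.33% and 12.1%. A rule that needs 3 UMIs finds more cells where more UMIs were read. Levels below are summed UMIs scaled to CPM, which adjusts for total depth but not for which cells a threshold picks.

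By the rule, 16.3% of control fibroblasts (interval 13.98 to 18.9) and 26.1% of cKO fibroblasts (23.8 to 28.5) were selected. The log2 ratio of the shares, cKO over control, was 0.67 (0.42 to 0.92). After every cell had been thinned to 2000 UMIs the shares were 12.3% of 749 and 19.97% of 1182 fibroblasts, a log2 ratio of 0.70 (0.38 to 1.02). Thinning left out 168 and 137 shallower fibroblasts, 3 and 5 of them selected cells.

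The gap between the libraries was not the same at all depths. Among fibroblasts of 6000 to 12000 UMIs, 16.3% of 184 were selected in the control library and 31.8% of 406 in the cKO library. Between 12000 and 24000 UMIs the shares were 26.7% and 34.3%, and above 24000 UMIs they were 35.0% of 80 and 33.3% of 114, a log2 ratio of -0.07 (-0.64 to 0.50). Below 6000 UMIs the shares were 9.40% and 16.6% (3000 to 6000) and 3.50% and 6.31% (1000 to 3000), with intervals of the ratio that held 0. The share was thus higher in the cKO library in the 4 shallower classes and not in the deepest. Fewer cells of a kind and less RNA of the 3 genes per cell cannot be told apart by such a threshold.

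**Figure D1:**
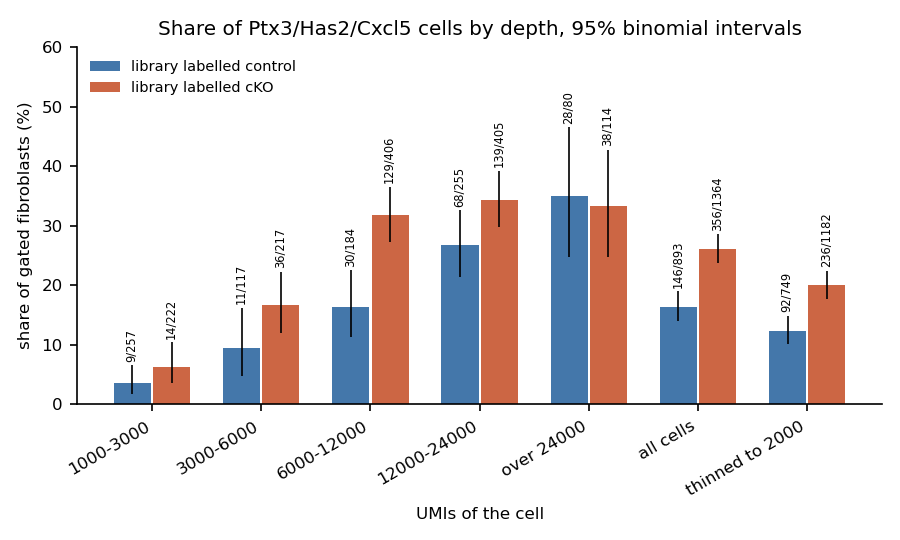
Share of fibroblasts that were Ptx3/Has2/Cxcl5 cells (vertical axis, percent) by the UMIs of the cell, for all cells and after thinning to 2000 UMIs (horizontal axis), in the library labelled control (blue) and the library labelled cKO (red). Bars are shares, lines are 95% binomial intervals and numbers are cells selected of all fibroblasts in the class; the share in the control library climbs with depth to 35.0%, that in the cKO library is 34.3% and 33.3% in the deepest classes, and the gap seen over all cells (16.3% and 26.1%) is absent above 24000 UMIs.

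Set against the other fibroblasts of its own library, the Ptx3/Has2/Cxcl5 cells had higher levels of Il6, Lif and the chemokine genes Cxcl1, Cxcl2, Cxcl3, Ccl2 and Ccl7. Of 7825 genes with at least 10 CPM in the selected or the other fibroblasts of both libraries, 32 (0.409%) were at least 2-fold higher in the selected cells in both libraries and 72 (0.92%) at least 2-fold lower, on the scale of log2(CPM + 5) and without the genes of the rule. The median gene lay at -0.01 in the control library and -0.06 in the cKO library. Counts of listed genes above or below 0 are given below, but the share of all tested genes on either side was not counted. In the control library taken alone, 79 of 8193 genes (0.964%) were higher by that margin and 186 (2.27%) lower, and in the cKO library alone 98 of 8247 (1.19%) and 309 (3.75%). With only cells of at least 5000 UMIs on both sides, the numbers were 26 and 48, all of them among the 32 and 72.

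Il6, the cytokine interleukin 6, had the largest difference of the 32 genes when ranked by the smaller value of both libraries. It stood at 503 CPM (interval 476 to 532) in the selected cells and 50.4 CPM in the other fibroblasts of the control library, a log2 difference of 3.20. In the cKO library it stood at 1218 CPM (1188 to 1249) and 96.8 CPM, a log2 difference of 3.59. The selected cells held 47.2% and 72.1% of all Il6 UMIs found in quality-passing cells, of which they were 4.18% and 9.93%. Such shares depend on the mix of cells, which differed between the libraries, with 806 and 62 epithelial cells. The same limit holds for the shares of Cxcl2 and Fst UMIs below.

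Il6 was nevertheless found in fewer than 1 of 2 selected cells. A UMI was present in 45.2% and 48.9% of them, the median cell had 0, the richest cell had 265 and 398 UMIs, and in the control library that 1 cell held 21.1% of the total. In T or NK cells (median depth 5213.5 and 4573 UMIs) 0% and 4.21% of cells had an Il6 UMI, and in smooth muscle cells (1861 and 2234 UMIs) 0% and 0.588%. Epithelial cells (6358 and 5343.5 UMIs) had an Il6 UMI in 9.68% of cells in both libraries, at 14.7 and 11.6 CPM, and the other fibroblasts in 10.8% and 12.1%, so the share in the other fibroblasts was close to that in epithelium. Macrophages had it in 12.5% and 19.8% of cells, at 43.3 and 135 CPM. In droplets without a cell Il6 stood at 140 and 236 CPM, above its level in epithelium, macrophages and the other fibroblasts. These levels are not scaled to the share of free RNA in a cell. The part of free RNA in the shares of those cells was not tested, and the shares are not read as expression.

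Among the other cytokines, Lif, leukaemia inhibitory factor of the same family, stood at 810 against 375 CPM in the control library and 1089 against 360 CPM in the cKO library (log2 1.10 and 1.58). Csf1, the macrophage growth factor, stood at 1773 against 1058 CPM and 1693 against 764 CPM, past 2-fold in the cKO library alone (0.74 and 1.14). Il11 was close to the other fibroblasts in the control library (147 against 126 CPM) and higher in the cKO library (204 against 73.0 CPM). Of 6 cytokine genes that reached the level needed, Il6 and Lif were at least 2-fold higher in both libraries. Il1b and Tnf encode 2 cytokines that drive such responses. Tnf was nearly absent, at 0.402 and 0.600 CPM. Il1b was nearly absent in the control library (0.803 CPM) and low in the cKO library (12.2 CPM).

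Of 7 CXC and CX3C chemokine genes at the level needed, outside the rule, 5 lay above 0 in both libraries and 1 below. Of these, 3 were at least 2-fold higher in both and 1 at least 2-fold lower. Cxcl1 stood at 1346 against 252 CPM in the control library and 1420 against 147 CPM in the cKO library (log2 2.39 and 3.23). Cxcl2 stood at 541 against 94.4 CPM and 779 against 55.4 CPM (2.46 and 3.70). Cxcl3 was lower in level, at 38.2 against 10.6 CPM and 66.4 against 5.86 CPM (1.47 and 2.72), and 1 cell held 41.1% and 46.4% of its UMIs. All 3 were thus higher in summed level in the selected cells in both libraries. A Cxcl1 UMI was found in 53.4% and 43.8% of the selected cells, and a Cxcl2 UMI in 25.3% in each library. The 33 and 47 cells in which Cxcl5 led the 3 rule genes held 1020 of 1347 and 1642 of 3892 Cxcl2 UMIs.

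Most Cxcl2 UMIs lay in other cells. The selected cells held 4.51% and 10.5% of its UMIs, and macrophages stood at 9221 and 14781 CPM, while its level in droplets without a cell was 321 and 768 CPM. Macrophages also carried Cxcl5 in 11.8% and 9.38% of cells. Ptx3 was found in 1 of 152 macrophages of the control library (0.658%) and 0 of 96 of the cKO library, for which a floor of 3 counts allows up to 3.12% of cells with a UMI. Has2 had a UMI in none of either, for which that floor allows up to 1.97% in the control library.

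Of the monocyte chemokines, Ccl2 stood at 4200 against 1039 CPM and 4645 against 821 CPM (log2 2.01 and 2.49). Ccl7 stood at 1785 against 428 CPM and 1548 against 347 CPM (2.05 and 2.14). Both were found in most selected cells, Ccl2 in 73.3% and 68.3% and Ccl7 in 73.3% and 58.1%. In contrast Cxcl10, an interferon-induced chemokine for T cells, was lower in the selected cells, at 87.2 against 335 CPM and 7.41 against 33.97 CPM (-1.88 and -1.65), and 1 cell held 71.0% of its UMIs in the control library.

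**Figure D2:**
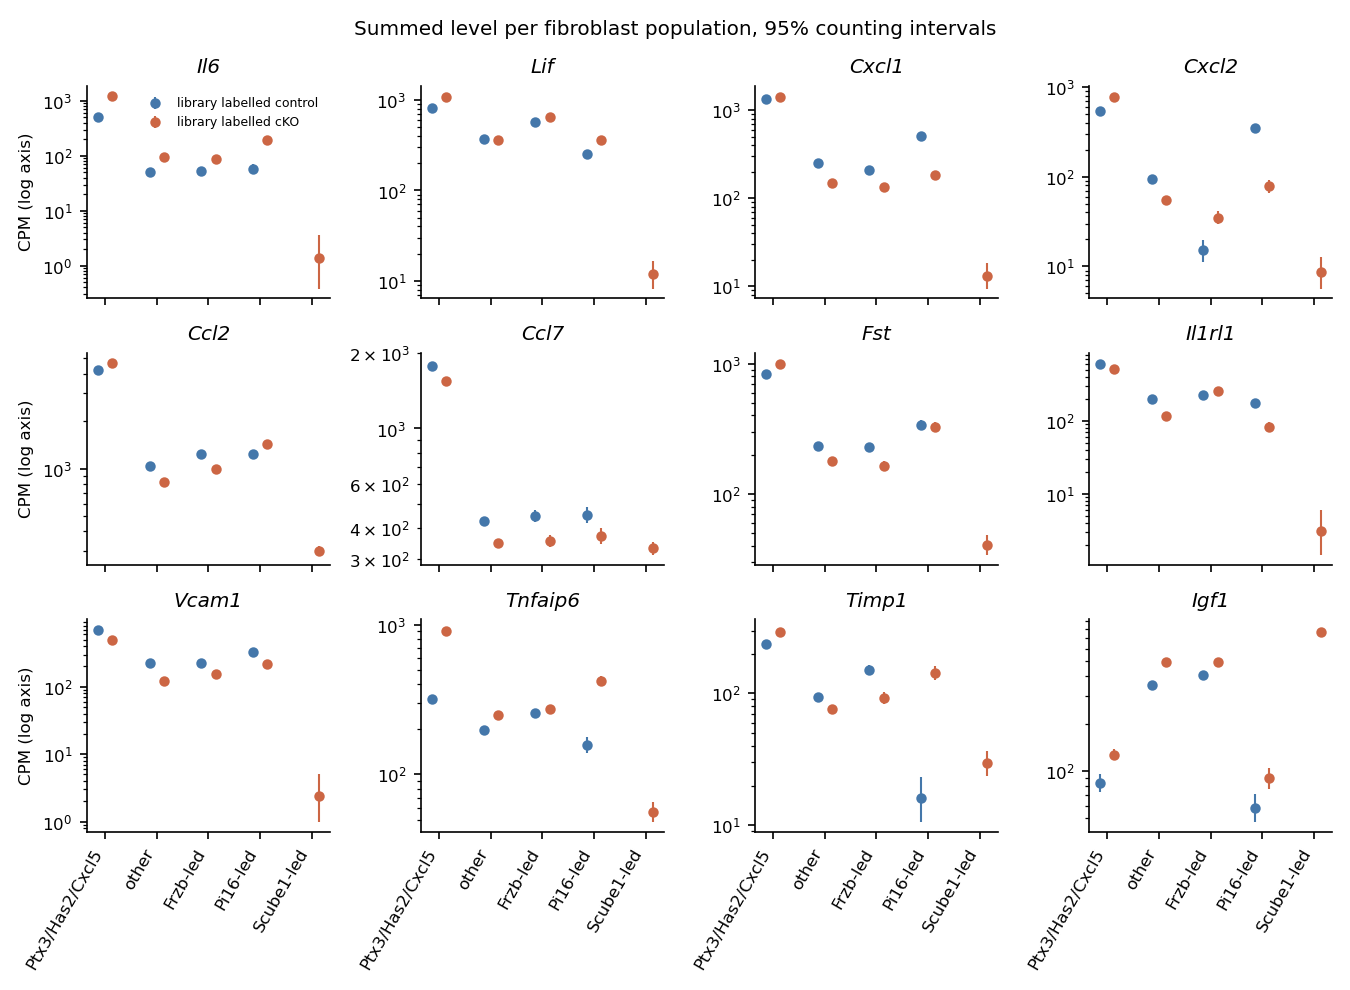
Summed level (CPM, log axis) of 12 genes in the Ptx3/Has2/Cxcl5 cells, all other fibroblasts and the fibroblasts led by the Frzb, Pi16 and Scube1 sets, in the library labelled control (blue) and the library labelled cKO (red). Points are sums over cells with 95% counting intervals, and the Scube1-led cells of the control library are not drawn because there were 6; Il6 stands at 503 and 1218 CPM in the first column and at 50.4 and 96.8 CPM in the second, while Igf1 is low in both the first and the Pi16-led column.

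A few cytokine receptor genes were also higher. Of 18 cytokine receptor genes at the level needed, 3 were at least 2-fold higher in both libraries, 13 lay above 0 in both and none below 0 in both. Il1rl1, the receptor of interleukin 33, stood at 607 against 199 CPM and 522 against 116 CPM (log2 1.58 and 2.13). In droplets without a cell Il1rl1 stood at 214 and 257 CPM, above the other fibroblasts, and the part of free RNA there was not tested. Il1r1, the receptor of interleukin 1, stood at 230 against 88.9 CPM and 193 against 92.6 CPM (1.32 and 1.02). Tnfrsf11b, the decoy receptor osteoprotegerin, stood at 101 against 44.4 CPM and 163 against 70.9 CPM (1.11 and 1.15). Il6st, the shared signalling chain of the interleukin 6 family, was close to the other fibroblasts, at 287 against 281 CPM and 321 against 341 CPM.

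Of 21 NF-kB target and feedback genes at the level needed (of 25 listed), 19 lay above 0 in both libraries and 3 were past 2-fold in both. Their medians were 0.43 and 0.63, against -0.01 and -0.06 over all tested genes. Vcam1, an adhesion molecule for leukocytes, stood at 682 against 224 CPM and 495 against 123 CPM (log2 1.59 and 1.97). Ier3, an early response gene, stood at 753 against 261 CPM and 762 against 289 CPM (1.51 and 1.38). Nfkb1, which encodes a subunit of the factor, stood at 409 against 199 CPM and 626 against 230 CPM (1.02 and 1.43). Smaller differences in the same direction were seen for the inhibitor Nfkbia (0.27 and 0.64), the feedback enzyme Tnfaip3 (0.69 and 0.96), Icam1 (0.43 and 0.98) and Sod2, the mitochondrial superoxide dismutase (0.95 and 0.83). Birc2 and Irf1 lay below 0 in both libraries.

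Of 9 hyaluronan genes at the level needed, outside the rule, none was past 2-fold in both libraries and 8 lay above 0 in both, with medians of 0.56 and 1.02. Tnfaip6 stood at 318 against 199 CPM in the control library and 905 against 250 CPM in the cKO library (log2 0.66 and 1.84). Has1, a second hyaluronan synthase, stood at 314 against 212 CPM and 651 against 234 CPM (0.56 and 1.46). Ugdh, which makes the sugar nucleotide UDP-glucuronate for hyaluronan, stood at 705 against 402 CPM and 1483 against 623 CPM (0.80 and 1.24). Cd44, the hyaluronan receptor, stood at 1098 against 794 CPM and 1314 against 611 CPM (0.46 and 1.10), and Vcan, the hyaluronan-binding proteoglycan versican, at 273 against 154 CPM and 364 against 204 CPM (0.81 and 0.82). Each of these 5 differed more from the other fibroblasts in the cKO library, Vcan by little.

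The other secreted products among the 15 highest genes were peptides and a binding protein. Fst, follistatin, an inhibitor of activins, stood at 837 against 234 CPM and 994 against 180 CPM (log2 1.82 and 2.43), and the selected cells held 37.0% and 62.8% of its UMIs in all cells. Penk, the precursor of enkephalins, stood at 254 against 70.1 CPM and 328 against 102 CPM (1.79 and 1.63). Cck, cholecystokinin, stood at 107 against 9.30 CPM and 75.7 against 19.1 CPM (2.97 and 1.74), but only 11.0% and 12.4% of cells had a UMI. Gm12840, Aldh1a3, a retinoic acid-producing enzyme, and Adora2b, an adenosine receptor, were the other 3 of the 15, with log2 differences between 1.40 and 2.21. Outside the 15, Timp1, an inhibitor of metalloproteinases and 1 of the markers of these cells, stood at 237 against 93.9 CPM and 292 against 76.8 CPM (1.29 and 1.86).

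Some collagen, contractile and stromal identity genes were lower. Of 17 genes of fibrillar collagens and their crosslinking, Col1a1, Col3a1 and Col5a1 were at least 2-fold lower in both libraries, 12 lay below 0 in both and 3 above 0 in both, with medians of -0.20 in each library. Col1a1 stood at 714 against 1551 CPM and 592 against 1807 CPM (log2 -1.11 and -1.60). Of 8 myofibroblast genes, Acta2, Myl9 and Cnn1 were at least 2-fold lower in both, Acta2 at 35.7 against 160 CPM and 32.8 against 97.4 CPM. Igf1, insulin-like growth factor, stood at 84.0 against 353 CPM and 127 against 490 CPM (-2.01 and -1.91). Of 16 uterine stromal identity genes, 11 lay below 0 in both libraries, with Wnt5a past 2-fold in both, and Esr1, the oestrogen receptor, at 67.1 against 115 CPM and 94.3 against 192 CPM.

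Tmem119, a membrane protein gene, stood at 14.1 against 91.7 CPM and 49.8 against 175 CPM (-2.34 and -1.71), Aldh1a2, a retinoic acid-producing enzyme, at 14.9 against 57.6 CPM and 62.6 against 328 CPM (-1.66 and -2.30), and Mylk, myosin light chain kinase, at 26.5 against 130 CPM and 23.8 against 116 CPM (-2.10 and -2.07). With an estimate of free RNA subtracted, Mylk in the cKO library turned to 1.32.

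Part of this lower set was shared with another population. In the Pi16-led fibroblasts Col1a1 stood at 609 and 419 CPM and Igf1 at 58.1 and 89.6 CPM, both below their levels in the selected cells, while the Frzb-led cells had 2112 and 1583 CPM of Col1a1 and 404 and 496 CPM of Igf1. With all cells led by or rich in the other 3 sets left out of the comparator, the Col1a1 difference in the cKO library was -0.40. The smooth muscle markers were also lower in the selected cells, as given above, and the part of that in the contractile genes was not tested. Globin genes were also lower: Hbb-bs had 2.41 against 188 CPM and 13.2 against 166 CPM, and Hba-a1 and Hba-a2, whose near-identical transcripts the counting could split, followed it. In the cKO library 1 cell held 83.3% of the Hbb-bs UMIs of the selected cells, and in droplets without a cell the 5 erythroid markers summed to 2949 and 3093 CPM. The estimated free RNA was lower in the selected cells than in the other fibroblasts. That estimate was read from macrophage, epithelial and erythroid markers, so it holds the globin genes themselves and is no separate observation. In the cKO library Hba-a1 and Hba-a2 kept their sign in 13 of 14 alternative settings, with a highest value of 0. The part of free RNA in the globin difference was not tested.

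Genes known to respond to handling of the tissue gave a mixed picture. Of 10 heat shock genes, 8 lay below 0 in both libraries and Hspa1a, Hspa1b and Hspb1 were at least 2-fold lower in both, Hspa1a at 61.5 against 332 CPM and 107 against 331 CPM, and 1 cell held 71.0% of its UMIs in the selected cells of the cKO library. Of 24 immediate early genes, 5 lay above 0 and 10 below 0 in both libraries, with medians of -0.27 and 0.11. Ier3, also listed among the NF-kB genes, was past 2-fold higher in both. Fos was past 2-fold lower in both, at 273 against 712 CPM and 252 against 536 CPM. The tissue had been digested for 5 hours, and the part of digestion in the inflammatory genes was not tested.

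**Figure D3:**
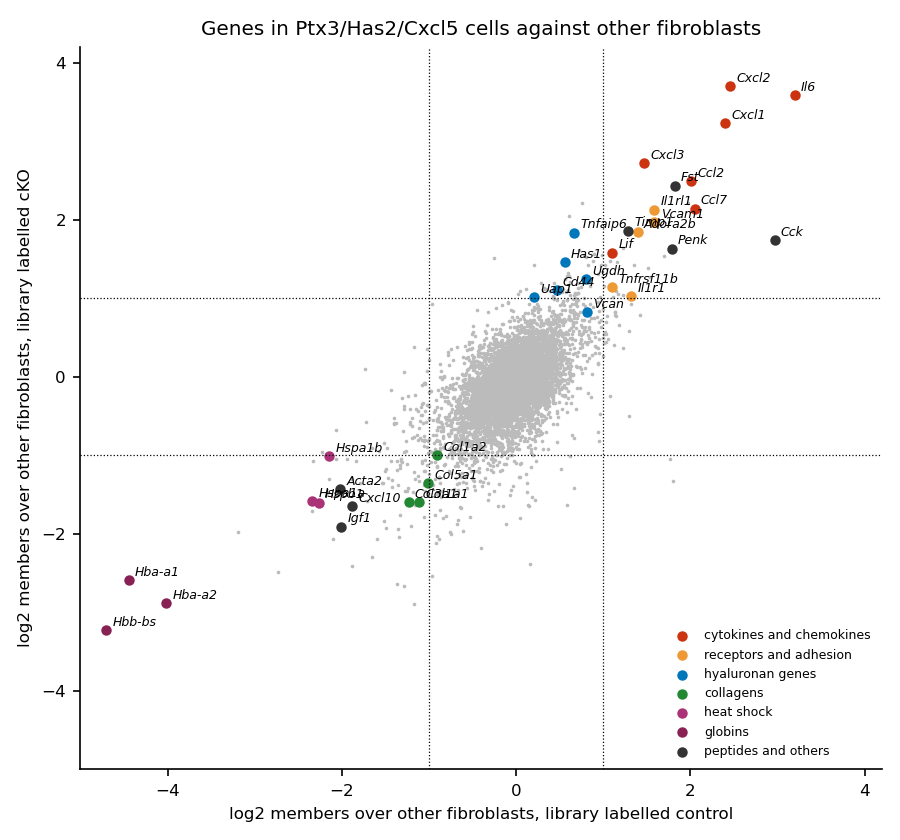
Log2 difference between the Ptx3/Has2/Cxcl5 cells and the other fibroblasts in the library labelled control (horizontal axis) and the library labelled cKO (vertical axis), on the scale of log2(CPM + 5), for 7825 genes (grey points) with named genes in colour by group. Dotted lines mark 2-fold; Il6 (3.20 and 3.59), Cxcl2 (2.46 and 3.70) and Cxcl1 (2.39 and 3.23) lie at the upper right, and globins, Igf1 (-2.01 and -1.91) and heat shock genes at the lower left.

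The single populations were compared in the same way. Compared with the Frzb-led fibroblasts (236 and 304 cells), the 5 highest genes by the smaller of both libraries' differences were Cxcl2 (4.30), Il6 (3.15), Csf2rb2 (2.74), Cxcl1 (2.67) and Cck (2.66). Compared with the Pi16-led fibroblasts (105 and 157 cells) they were Il6 (2.61), Ccl7 (1.97), Gm12840 (1.96), Il1rl1 (1.74) and Ccl2 (1.69), and Scara5 was among the lowest (-1.90). Scube1-led fibroblasts were compared in the cKO library alone, where there were 134 of them against 6 in the control library. There Il6 (7.58), C3, the central complement protein (6.45), Mmp3, the metalloproteinase stromelysin 1 (6.38), Cxcl1 (6.29) and Gm12840 (6.17) were highest in the selected cells, and Wnt5a was among the lowest (-4.28). Il6 was in the top 5 against all 3 populations, and no other gene was in all 3 lists.

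Within the selected cells the gene that led each of them went with further differences. Cells were split by which of Ptx3, Has2 and Cxcl5 had the most UMIs, which gave 67, 41 and 33 cells in the control library and 125, 178 and 47 in the cKO library, with 5 and 6 ties left out. Has2-led cells were thus the largest of the 3 groups in the cKO library and Ptx3-led cells in the control library. The genes compared here were chosen after their values had been seen, and the cells of 1 library share a preparation.

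Cxcl5-led cells had the highest levels of several chemokines. Cxcl1 stood at 739, 894 and 2539 CPM in Ptx3-led, Has2-led and Cxcl5-led cells of the control library and at 1208, 867 and 4576 CPM in the cKO library. Ccl2 stood at 3789, 2966 and 6084 CPM, and at 3964, 3781 and 10470 CPM. Ier3 stood at 355, 516 and 1544 CPM, and at 595, 682 and 1660 CPM. In both libraries the Cxcl5-led cells were highest in all 3 genes.

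Il6 did not keep that order. It stood at 573, 343 and 556 CPM in the control library, where Ptx3-led and Cxcl5-led cells were close, and at 909, 1116 and 2745 CPM in the cKO library. Il1rl1 was highest in Cxcl5-led cells of the control library (1007 CPM, against 325 and 482) and in Ptx3-led cells of the cKO library (741 CPM, against 308 and 671). Cell by cell, the Spearman correlation of Cxcl5 with Cxcl1 was 0.49 over 146 cells and 0.31 over 356 cells, and that of Il6 with Cxcl1 was 0.53 and 0.49. These points share library and depth, and the correlations are given as a description.

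**Figure D4:**
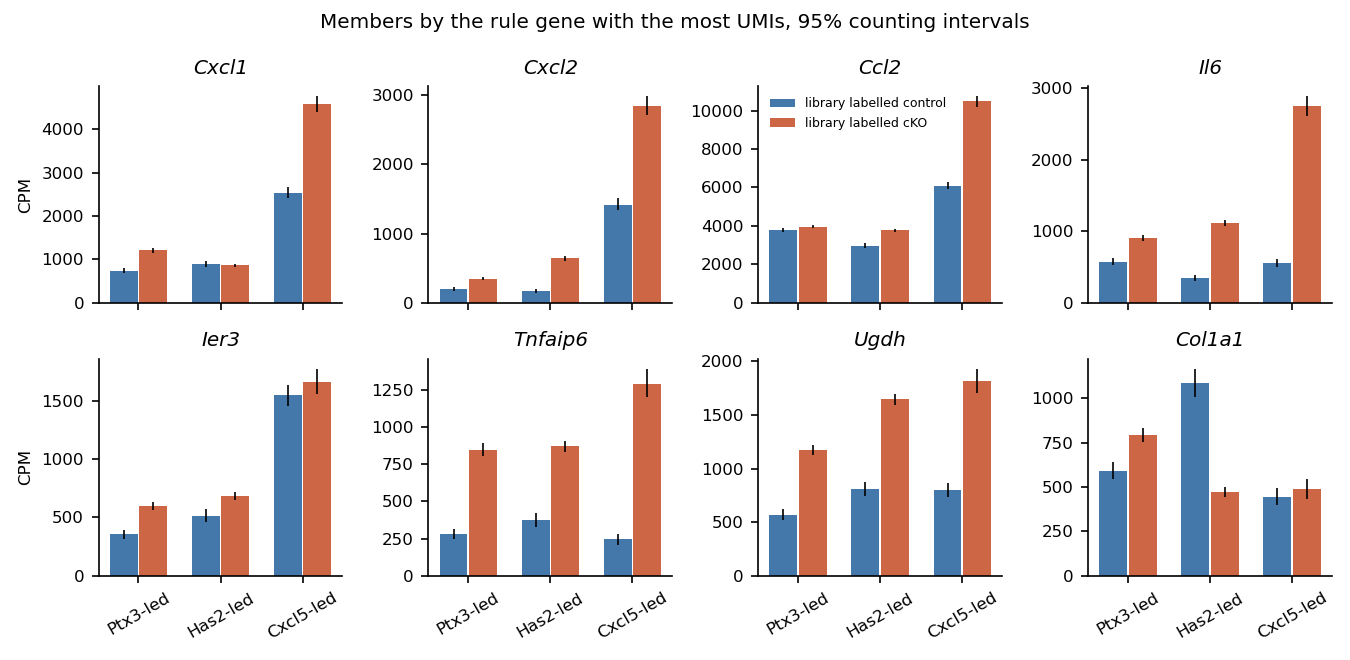
Summed level (CPM) of 8 genes in Ptx3/Has2/Cxcl5 cells split by the gene of the rule with the most UMIs (horizontal axis), in the library labelled control (blue) and the library labelled cKO (red), with 95% counting intervals. Cxcl1, Ccl2 and Ier3 are highest in Cxcl5-led cells of both libraries (Cxcl1 2539 and 4576 CPM), and Tnfaip6 and Ugdh are higher in the cKO library in each of the 3 groups.

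Between the libraries, 4 hyaluronan genes of the Ptx3/Has2/Cxcl5 cells were at least 2-fold higher in the library labelled cKO. Lower by 2-fold or more were 13 interferon-stimulated genes and 2 hyaluronan genes, of which Lyve1 came from lymphatic-marked control cells. Of 7981 genes with at least 10 CPM in the selected cells of either library, 78 (0.977%) were at least 2-fold higher in the cKO library and 101 (1.27%) at least 2-fold lower. The median gene lay at 0.06, and the share of all tested genes above or below 0 was not counted here either. In the other fibroblasts, 170 of 8367 genes (2.03%) were at least 2-fold higher and 92 (1.1%) at least 2-fold lower, with a median of 0.11. These are differences between 2 libraries, with no replicate check.

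Of 10 hyaluronan genes at the level needed, Tnfaip6, Has1, Ugdh and Uap1 were at least 2-fold higher in the cKO library and Cemip and Lyve1 at least 2-fold lower. Of the 189 Lyve1 UMIs in the control library, 187 lay in 2 selected cells with lymphatic markers. The median was 0.47 for the 10 genes and 0.14 for the 9 in the other fibroblasts. Tnfaip6 stood at 318 CPM (interval 296 to 341) in the control library and 905 CPM (879 to 932) in the cKO library, a log2 difference of 1.49, and its difference in the other fibroblasts was 0.32. Uap1, which makes the other hyaluronan precursor, UDP-N-acetylglucosamine, stood at 106 and 285 CPM (1.38, and 0.58 in the other fibroblasts). Ugdh stood at 705 and 1483 CPM (1.07, and 0.62) and Has1 at 314 and 651 CPM (1.04, and 0.14). With median of ratios scaling Ugdh and Has1 fell short of 2-fold, at 0.99 and 0.96. Over 13 alternative settings Ugdh was past 2-fold in 12. Has1 was past 2-fold in only 7 of the 13, with a lowest value of 0.73, although it stayed above 0 in all 13.

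Tnfaip6 and Ugdh were also described by leading gene. The 3 groups are parts of the same pooled libraries, so they are no replicates and no check of the difference. Tnfaip6 stood at 282 and 846 CPM in Ptx3-led cells, 373 and 870 CPM in Has2-led cells and 245 and 1290 CPM in Cxcl5-led cells of the control and the cKO library. Ugdh stood at 571 and 1173 CPM, 808 and 1647 CPM, and 800 and 1814 CPM. Both genes were thus higher in the cKO library in each of the 3 groups. Has2 itself, a gene of the rule, is described above at 433 and 832 CPM. Cemip, which encodes a protein that breaks hyaluronan down, was the 1 hyaluronan gene other than Lyve1 that was past 2-fold lower, at 47 and 26 UMIs (18.9 and 5.20 CPM).

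Single genes of 3 lists, Nr4a3 (1 of 24 immediate early genes past 2-fold higher), Ptgs2 (1 of 11 prostaglandin genes) and Il6 (with Il1b, 2 of 10 cytokine genes, while Il1rn and Csf2 were past 2-fold lower), were higher in the cKO library in these cells, and the first 2 differed little between the libraries in the other fibroblasts. Nr4a3, an immediate early nuclear receptor, stood at 94.0 and 343 CPM, a log2 difference of 1.82, against 113 and 117 CPM in the other fibroblasts (0.05). Ptgs2, the inducible cyclooxygenase, stood at 106 and 318 CPM (1.54), against 68.0 and 73.0 CPM (0.09). By leading gene Ptgs2 stood at 91.3 and 103 CPM in Ptx3-led cells, 141 and 394 CPM in Has2-led cells and 93.2 and 732 CPM in Cxcl5-led cells, so that the Ptx3-led cells of both libraries were close. Nr4a3 stood at 125 and 204 CPM, 85 and 466 CPM, and 65.4 and 284 CPM. Il6 stood at 503 and 1218 CPM (1.27), and it was also higher in the other fibroblasts of the cKO library, by 0.88. After thinning to 2000 UMIs the Il6 difference was 0.77. Of 24 immediate early genes, 19 lay above 0 in the selected cells, with a median of 0.41, and the median in the other fibroblasts was -0.07. The difference between both kinds of cells was not tested.

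Of 11 prostaglandin genes at the level needed, 7 lay above 0 and 4 below, with Ptgs2 the 1 past 2-fold higher and Ptges and Slco2a1 past 2-fold lower. Ptges, the inducible prostaglandin E synthase, stood at 145 CPM in the control library and 66.0 CPM in the cKO library (log2 -1.07), and the prostaglandin transporter Slco2a1 at 103 and 45.4 CPM (-1.10). Mmp3 stood at 1242 and 499 CPM (-1.31), and in the other fibroblasts at 707 and 171 CPM (-2.02). By leading gene Mmp3 was lower in the cKO library in all 3 groups, at 1203 and 528 CPM, 876 and 400 CPM, and 1505 and 780 CPM.

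Among the chemokines, Cxcl1 (0.08), Ccl2 (0.15) and Ccl7 (-0.21) were each within 2-fold between the libraries. Of 7 CXC genes at the level needed, Cxcl14 was past 2-fold higher, at 13.3 and 33.0 CPM (1.06), and Cxcl10 past 2-fold lower, at 87.2 and 7.41 CPM (-2.89). Of 6 CC genes, Ccl11, eotaxin, was past 2-fold higher at 17.7 and 87.1 CPM, and Ccl8, at 20.5 and 4.403 CPM, and Ccl21a past 2-fold lower.

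Of 16 interferon-stimulated genes at the level needed, all 16 lay below 0 in the cKO library and 13 were at least 2-fold lower, with a median of -1.72. In the other fibroblasts the median of 21 such genes was -1.43. Ifit1 had 138 UMIs in the control library (55.4 CPM) and 1 UMI in the cKO library, Isg15 stood at 53.4 and 5.40 CPM (-2.49), and Rsad2 at 46.2 and 3.80 CPM (-2.54). For Rsad2 and Isg15 a few cells gave much of the control level. Rsad2 was found in 7.53% of selected cells of the control library, and 1 cell held 82.6% of its UMIs there. Isg15 was found in 17.1% and 5.06% of cells, with 37.6% of the control UMIs in 1 cell. The lower interferon-stimulated genes were therefore seen in both kinds of fibroblasts. Among the selected cells Rsad2, and Isg15 in part, rested on few cells, and the spread of the other such genes over cells is not given here.

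Several of the largest differences belonged to single cells or low counts. Ccl21a had 890 UMIs and Mmrn1 175 UMIs in the selected cells of the control library, each from 1 cell, and 98.9% of Lyve1 came from 1 cell, all markers of lymphatic endothelium. Ccl21a has near-identical copies in the genome, between which the counting could split. With the 2 control and 3 cKO cells left out that had 3 or more UMIs of lymphatic markers, an alternative chosen after the values were seen, Lyve1 was at 0.27, and 84 genes were 2-fold lower in the cKO library and 89 higher. Prap1, a secreted product of uterine epithelium, had 75 and 4 UMIs, and the 6 epithelial markers summed to 20.1 and 2.00 CPM in the same cells, and their part in the result was not tested. Saa3, a serum amyloid, had 32 and 410 UMIs with 90.6% and 53.4% in 1 cell. Gm15247 had 0 UMIs in the control library and 134 UMIs, in 12.9% of cells, in the cKO library.

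Among genes with more even counts, Ctla2a, a cysteine protease inhibitor, stood at 515 and 3110 CPM (log2 2.58) and at 286 and 2043 CPM in the other fibroblasts (2.81), so it differed between the libraries in both. Aldh1a2 (1.77 and 2.41), Rorb (1.99 and 2.17) and Ccl11 (2.02 and 1.85) were likewise higher in the selected cells and in the other fibroblasts of the cKO library, although after thinning to 2000 UMIs Aldh1a2 was at -0.030 in the selected cells. Gsn, the actin-severing protein gelsolin, stood at 2140 and 4455 CPM, with UMIs in 97.3% and 99.2% of cells (1.06, and 0.38 in the other fibroblasts), and Adgrd1, an adhesion receptor, at 17.3 and 63.2 CPM (1.62, and 0.78). Angptl4, an inhibitor of lipoprotein lipase, stood at 41.4 and 3.40 CPM (-2.46, and -1.30). Of 13 universal and adventitial fibroblast genes all lay above 0 in the selected cells, with Gsn the 1 past 2-fold. Their median was 0.75, against 0.27 for 14 genes in the other fibroblasts. Hsd11b2, an enzyme that inactivates glucocorticoids, had only 10 and 120 UMIs, and its difference turned to -1.21 after thinning. Of 25 basement membrane and glycoprotein genes 23 lay above 0, with none past 2-fold and a median of 0.48, against 0.17. Fn1, fibronectin, stood at 310 and 548 CPM (0.81), and the fibrillar collagen Col1a1 at 714 and 592 CPM (-0.27).

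**Figure D5:**
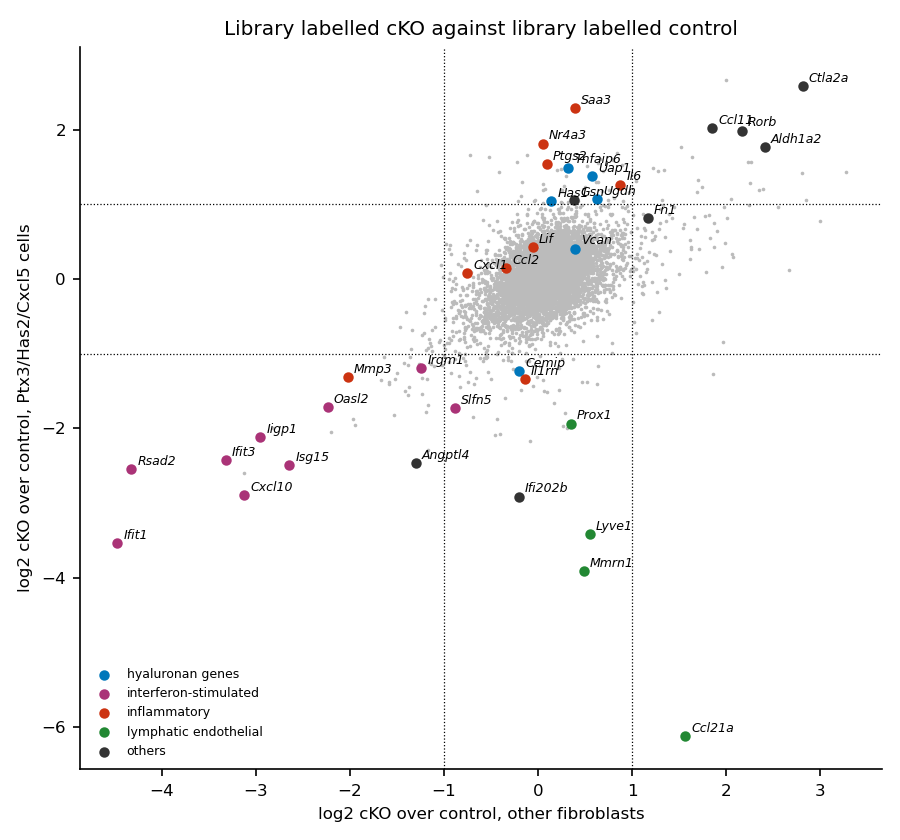
Log2 difference between the library labelled cKO and the library labelled control in the other fibroblasts (horizontal axis) and in the Ptx3/Has2/Cxcl5 cells (vertical axis), on the scale of log2(CPM + 5), with named genes in colour by group. Dotted lines mark 2-fold; Tnfaip6 (0.32 and 1.49), Ptgs2 (0.09 and 1.54) and Nr4a3 (0.05 and 1.82) lie above the upper line near the middle, interferon-stimulated genes at the lower left, Ctla2a (2.81 and 2.58) at the upper right, and the lymphatic genes at the bottom came from single cells.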

How the data were processed

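Per the file headers, the authors deposited whole-number UMI counts per gene and barcode for each library, in a matrix of all barcodes, with Cell Ranger 4 named in the header, while the submitters' processing notes name Cell Ranger 6.1.1 and build mm10. The deposited counts were used as given for 32285 gene identifiers, with Python 3.11.15, numpy 2.4.6, scipy 1.17.1, pandas 2.3.3, scanpy 1.11.5 and matplotlib 3.10.9. The members and the gene lists were chosen with earlier results of these data known.

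UMIs were summed over the cells of a library, scaled to CPM and compared as log2 ratios with 5 CPM added to both sides. Genes needed 10 CPM in either group, and a difference of 2-fold (log2 of 1) was counted. With 1 library per group no statistical test was run. Counting intervals were exact Poisson or exact Clopper-Pearson at 95%, except those of log2 ratios of shares, which used a normal approximation. All treat UMIs and cells as independent. The calculations were tested on simulated data. Named genes were the rule's genes, Tnfaip6, Timp1 and Prickle1, the 15 highest and 10 lowest against other fibroblasts, the 10 highest and 10 lowest between libraries, the 5 highest against each other population, and listed genes of at least 20 CPM. Other genes named (Il1b, Tnf, Cemip, Scara5 and Wnt5a against Scube1-led cells) were chosen after their values were seen. Scrublet's automatic threshold marked 4 of 7076 cells (0.0565%) and had not worked, so no doublets were removed and some may remain. Other cell types were gated by marker genes. Free RNA was read from barcodes of 10 to 100 UMIs. Its share in a population was estimated from the summed macrophage, epithelial (without Epcam) and erythroid markers. Promoters came from RefSeq tables.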

Additional observations from a re-analysis of the deposited data

Results flagged for a closer look

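For 6 genes the Ptx3/Has2/Cxcl5 cells lay above the other fibroblasts in 1 library and below them in the other, with 1 pooled library on each side, and the difference between the libraries was not tested. The values are log2 differences from the other fibroblasts, and the gap is cKO minus control. Angptl4 lay at 0.59 in the control library and -0.57 in the cKO library, a gap of -1.17. Il1rn, the interleukin 1 receptor antagonist, lay at 0.66 and -0.55, a gap of -1.20, with 78.8% and 80.8% of its UMIs in 1 cell. Ifi202b, an interferon-inducible gene, lay at 2.15 and -0.56, a gap of -2.71, and 1 cell held 53.1% of its UMIs in the control library. Lyve1 lay at 3.11 and -0.85, a gap of -3.96, and Ccl21a at 6.18 and -1.51, a gap of -7.69, both from 1 control cell with lymphatic markers; the fitted values for Ccl21a depend on the 5 CPM added, since the other control fibroblasts had no UMI. Saa3 lay at -0.97 and 0.93, a gap of 1.89, with 90.6% and 53.4% of its UMIs in 1 cell.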

How the results depend on the processing

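No paired analysis was possible because each group was 1 library of pooled mice, and no replicate could be left out. The number of genes at least 2-fold higher in the Ptx3/Has2/Cxcl5 cells than in other fibroblasts in both libraries (32) became 52 after thinning every cell to 2000 UMIs, of which 21 were among the 32, and 112 with only fibroblasts poor in all 3 other gene sets as comparator, 27 of them among the 32. The number lower (72) became 115 with 1 CPM added in place of 5, 29 for genes of at least 50 CPM, 161 with every cell weighted equally, 165 after thinning and 374 with the poorer comparator. Between libraries, the number higher in the cKO library (78) became 131 with 1 CPM added, 35 at 50 CPM and 821 after thinning, and the number lower (101) became 167, 33 and 778 under the same settings. Thinning left 92 and 236 cells of 2000 UMIs, so that fewer UMIs stood behind each gene. For named genes, the sign was kept in 448 of 448 values against other fibroblasts in the control library, 445 of 448 in the cKO library and 378 of 390 between libraries. Genes that had been at least 2-fold apart and crossed 0 were Mylk against other fibroblasts in the cKO library with free RNA subtracted (1.32) and, between libraries, Aldh1a2 (-0.030) and Hsd11b2 (-1.21) after thinning, Ccl21a with the deepest 5% of cells removed (0.078) or lymphatic-marked cells left out (0.058), and Lyve1 with the deepest cells removed (0.24), with further lineage markers at 0 (0.25) or with lymphatic-marked cells left out (0.27). For the lymphatic genes the left-out cell held nearly all UMIs, and for the other genes the cause was not tested. The share of selected cells stayed higher in the cKO library under every setting run, with log2 ratios from 0.48 (cells of at least 5000 UMIs) to 0.70. The settings with at least 5000 UMIs and without lymphatic-marked cells were chosen after seeing the data.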
